A study of Mus musculus with 6 samples.

Results

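The 39 HOX cluster genes are the homeobox genes of the Hoxa, Hoxb, Hoxc and Hoxd clusters. They were taken from the count table by name, as every row called Hoxa, Hoxb, Hoxc or Hoxd followed by a number, and made up 39 of 21959 genes: 11 of Hoxa, 10 of Hoxb, 9 of Hoxc and 9 of Hoxd. RNA was sequenced in 6 libraries of mouse gastric adenocarcinoma cells, 3 of the parental line MPC and 3 of its paclitaxel (PTX) resistant derivative MPC-PTX, which are called MTC and MTC-R in the study. MPC came from gastric organoids of a C57BL/6J mouse that carried floxed Trp53 and Cdh1 alleles (flox/flox) and Mist1-CreER, in which Mist1 drives the Cre. The organoids lost both genes in culture, were grown as a subcutaneous tumour in a BALB/c nude mouse, and gave MPC by selection of a single clone. MPC-PTX was the same line after more than 30 cycles of PTX, a drug that stabilizes microtubules, and was also selected as a clone, so a difference between the lines cannot be told apart from a difference between clones. Both lines carry the labelled genotype CDH1-/-;Trp53-/-, all libraries carry the same batch label, and the labels do not say whether replicates were separate cultures. The p-values below therefore measure the spread between these libraries, which may be technical.

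HOX proteins are transcription factors that give cells their position along the body axis. In the mouse they lie in clusters on 4 chromosomes, and genes at the same place in different clusters form a paralog group, numbered from 1 at the 3′ end, used towards the head, to 13 at the 5′ end, used towards the tail. In the digestive tract, groups 9 to 13 are best known from the hindgut and groups 4 to 6 from the foregut and stomach. HOX proteins bind DNA together with PBX, MEIS and PKNOX proteins, retinoic acid and caudal (CDX) proteins switch the clusters on in the embryo, and Polycomb complexes keep them silent elsewhere.

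The libraries held between 16574580 and 23148182 counts. The lines separated along the first principal component, which carried 76.6% of the variance. The spread between libraries (biological coefficient of variation) was 17.9% in MPC and 3.01% in MPC-PTX, and MPC replicates 1 and 3 lay at opposite ends of the second component, at 25.4 and -31.6. The deviation of replicate 3 from the MPC mean rose with gene length (Spearman's rho across genes 0.472) and fell with GC content (rho -0.584), while that of replicate 1 did the opposite (rho -0.429 and 0.467). The targeted genes were counted in every library, Cdh1 at 132 to 136 CPM (counts scaled to a common library size) in MPC and 131 to 136 in MPC-PTX, and Trp53 at 3.25 to 5.77 and 5.86 to 6.59. These are counts over whole genes, and which exons were deleted was not used here, so they do not check the genotype. Of 18 markers of gastric epithelium, 12 passed the filter on low counts. Their summed level was 10077 to 11585 CPM in MPC and 6095 to 6254 in MPC-PTX, with 10 lower and 1 higher in MPC-PTX at an adjusted p below 0.05 (edgeR), against 15.6% and 14.1% of all genes tested. Keratins, Epcam and Cldn18 were present in both lines, but the markers did not fall alike. Ctse had 4387, 6009 and 5850 counts in MPC and 30, 29 and 32 in MPC-PTX. Anxa10 had 1681, 2912 and 3059 against 10, 4 and 6. Their log2 fold changes were -7.54 and -8.62, with -2.65 for Gata6 and -1.02 for Krt8. The 1 higher marker, Sox2, rose by 0.45 on the log2 scale. The mucous-cell genes Tff1, Tff2 and Gkn2 had 0 counts, and Muc5ac, Muc6 and Gkn1 no more than 2 in any library. Markers of other cells were low in both lines: 10 fibroblast markers summed to 10.1 to 11.1 CPM in MPC and 8.76 to 10.6 in MPC-PTX, 8 leukocyte markers to 11.3 to 12.8 and 9.80 to 10.7 (mostly Cd68), and 6 endothelial markers to 3.40 to 4.83 and 3.07 to 3.39.

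The sequences upstream of the 3 most abundant HOX genes are shown because the 3 lie next to each other and moved differently between the lines. Each is the 250 bases before an annotated transcript start (RefSeq, GRCm38.p6, chromosome 6, minus strand), written 5′ to 3′. Capitals mark a match on either strand to CCAAT (also read as ATTGG), to TATAAA (also read as TTTATA) or to TTTATG, a core bound by caudal proteins. The Hoxa10 window is chr6:52234940-52235189, before the shorter transcript and inside the longer gene model. The Hoxa11 window is chr6:52245811-52246060 and the Hoxa13 window is chr6:52260881-52261130.
Hoxa10: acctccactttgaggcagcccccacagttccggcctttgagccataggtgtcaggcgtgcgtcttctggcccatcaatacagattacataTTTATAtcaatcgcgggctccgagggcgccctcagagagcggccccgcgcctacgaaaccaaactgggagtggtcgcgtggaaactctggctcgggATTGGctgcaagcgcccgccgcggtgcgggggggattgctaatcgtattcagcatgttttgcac
Hoxa11: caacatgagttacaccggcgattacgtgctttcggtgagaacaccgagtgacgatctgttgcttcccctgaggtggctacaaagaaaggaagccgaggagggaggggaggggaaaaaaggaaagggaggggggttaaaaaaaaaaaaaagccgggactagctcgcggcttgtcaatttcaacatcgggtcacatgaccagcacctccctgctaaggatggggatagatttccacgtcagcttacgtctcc
Hoxa13: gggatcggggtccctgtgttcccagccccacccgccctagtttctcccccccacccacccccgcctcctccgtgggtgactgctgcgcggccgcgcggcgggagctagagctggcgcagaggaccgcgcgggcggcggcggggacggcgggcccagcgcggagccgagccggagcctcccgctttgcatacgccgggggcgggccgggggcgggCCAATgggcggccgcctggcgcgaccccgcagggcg
The Hoxa13 window was 80.0% GC with 35 CpG dinucleotides and 1 CCAAT. The Hoxa10 window was 59.2% GC with 20 CpG, 1 CCAAT and 1 TATAAA. A second Hoxa10 window, not printed, lies before the longer gene model at chr6:52240855-52241104. It was 51.6% GC with 7 CpG and held none of the 3 motifs, so the Hoxa10 values depend on the start chosen. The Hoxa11 window was 52.0% GC with 13 CpG, and none of the 3 motifs was in it. RefSeq gave 24 such windows for 22 of the 39 HOX genes, 10 of them for genes that passed the filter and 14 for others. The median was 12.5 CpG per HOX window against 6 in all 32851 windows. CCAAT was in 14 of 24 HOX windows and in 33.8% of all windows, TATAAA in 4 of 24 and 12.4%, and TTTATG in 5 of 24 and 10.8%. The median number of CpG was 15.5 in the windows of genes that passed the filter and 12 in the others, so windows rich in CpG also stood before HOX genes with no count, such as Hoxd13 with 31 CpG and Hoxd1 with 24.

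The clusters also hold microRNA genes, of which Mir196b lies within exons of the Hoxa9 gene model (85 bases, 1.52% of its exons) at chr6:52230129-52230150, minus strand. Its copies in the other clusters are Mir196a-1 in Hoxb at chr11:96265187-96265208 and Mir196a-2 in Hoxc at chr15:102973365-102973386, both on the plus strand. The mature RNAs are printed to show what the clusters share, with the seed, bases 2 to 8, in capitals.
miR-196b-5p: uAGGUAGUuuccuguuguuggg
miR-196a-5p: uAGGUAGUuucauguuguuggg
The seed is the same in both. Mature microRNAs were not measured in these libraries, and the Hoxa9 counts are those of the gene.

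HOX expression in both lines came almost wholly from Hoxa. All 11 Hoxa genes had counts, 7303 in MPC and 7599 in MPC-PTX summed over 3 libraries. Hoxb had 87 and 44, Hoxc 2 and 1, and Hoxd 0 and 1. Levels of different genes were compared as CPM per kb of the longest annotated transcript. On this scale Hoxa gave 98.7% ± 0.388 (SD, n = 3) of the summed HOX level in MPC and 99.4% ± 0.139 (n = 3) in MPC-PTX. The summed Hoxa level was 51.2 ± 2.69 CPM per kb in MPC and 51.4 ± 2.1 in MPC-PTX, a difference smaller than the spread between libraries. The summed Hoxb level was 0.505, 0.535 and 0.918 CPM per kb in the MPC libraries and 0.245, 0.397 and 0.224 in the MPC-PTX libraries. All 3 MPC libraries were above all 3 MPC-PTX libraries, and an exact two-sided permutation test of 3 against 3 cannot give a p below 0.1. Hoxb6 alone held 51 of the 87 Hoxb counts in MPC and 15 of the 44 in MPC-PTX. Of all genes tested, 22.7% did not overlap between the lines and were lower in MPC-PTX. That figure is for single genes, and none was made for sums over several genes. Such bulk values cannot tell fewer expressing cells from less RNA per cell.

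**Figure D1:**
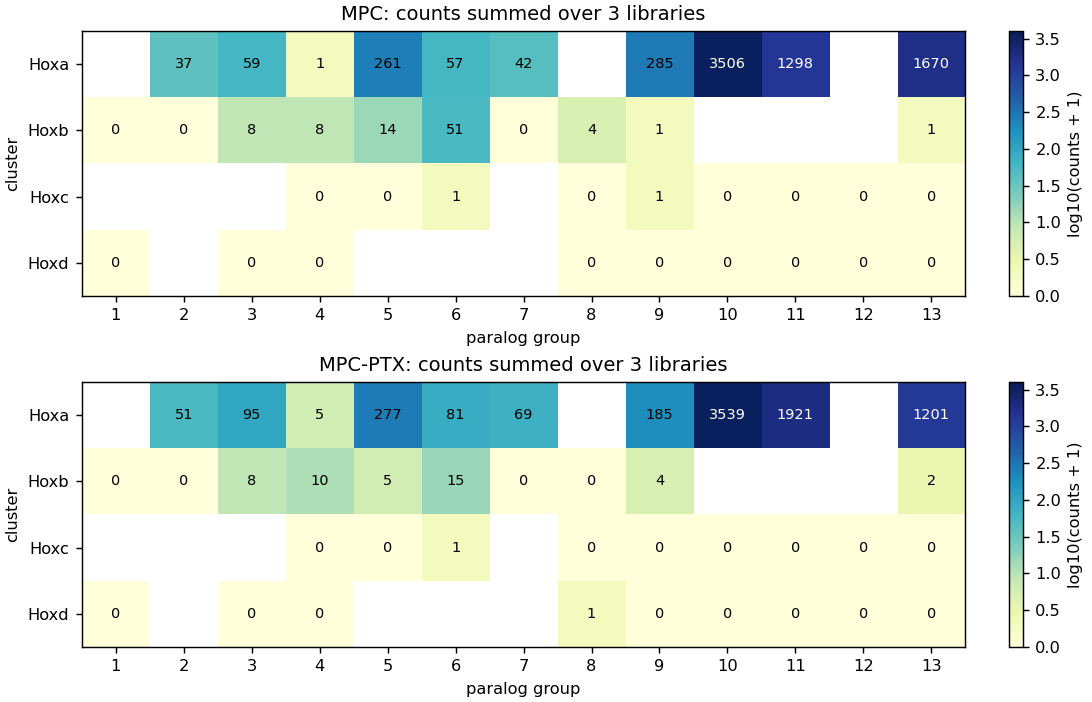
Counts of each HOX gene summed over 3 libraries, for MPC (top) and MPC-PTX (bottom), with clusters as rows and paralog groups as columns. Colour is log10(counts + 1), the printed numbers are the counts, and white squares are places with no gene or with a gene not shown. The Hoxa row is the darkest, with 3506 counts of Hoxa10 in MPC and 3539 in MPC-PTX, and the Hoxc and Hoxd rows hold 0 to 2.

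The silent part of the HOX set was large. In Hoxc, 7 of 9 genes, and in Hoxd, 8 of 9 genes, had 0 counts in all 6 libraries. The exceptions were Hoxc6 with 1 count in MPC replicate 3 and 1 in MPC-PTX replicate 3, Hoxc9 with 1 in MPC replicate 1, and Hoxd8 with 1 in MPC-PTX replicate 3. In Hoxb, Hoxb1, Hoxb2 and Hoxb7 had 0 counts. A count of 0 over the 3 libraries of a line allows up to 3 counts, which is 0.0501 CPM in MPC and 0.0487 in MPC-PTX, counting error only. With at least 1 count in every library, 15 HOX genes were detected in MPC and 14 in MPC-PTX. The one that differed was Hoxb8.

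Within Hoxa the level was highest towards the 5′ end. Hoxa10, the most abundant HOX gene, stood at 23.2 ± 1.59 CPM per kb in MPC and 22.05 ± 0.753 in MPC-PTX (SD, n = 3), higher than 80.2% and 79.2% of the 16075 genes with any count. Hoxa13 followed in MPC at 11.7 ± 2.08 CPM per kb and Hoxa11 at 9.63 ± 0.748, values that lie within about 1 SD of each other. In MPC-PTX the order was turned, with Hoxa11 at 13.6 ± 1.01 CPM per kb and Hoxa13 at 8.12 ± 0.984. The remaining Hoxa genes were far lower. Hoxa5, which acts in lung and stomach development, had 2.35 ± 0.443 CPM per kb in MPC and 2.37 ± 0.194 in MPC-PTX, and Hoxa9, Hoxa6, Hoxa3, Hoxa2 and Hoxa7 lay between 0.348 and 1.52. Hoxa4 was near the floor, with 1 count in MPC and 5 in MPC-PTX. Paralog groups 9 to 13 together gave 91.7%, 89.0% and 89.0% of the Hoxa level in the MPC libraries and 86.9%, 87.2% and 86.4% in the MPC-PTX libraries. The lines did not overlap in this share. Of all single genes tested, 24.2% were higher in MPC-PTX without overlap and 22.7% were lower. These figures are for single genes in CPM, and none was made for a share of summed genes. The smallest exact two-sided permutation p for 3 against 3 libraries is 0.1.

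**Figure D2:**
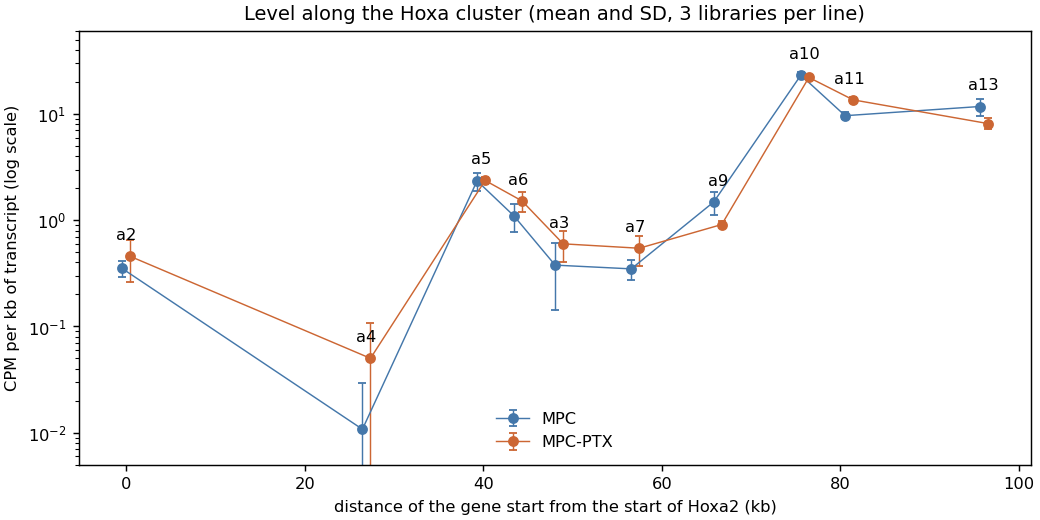
Level of 10 Hoxa genes (CPM per kb of transcript, log scale) against the distance of its annotated start from the start of Hoxa2 in kb, with the mean and SD of 3 libraries for MPC (blue) and MPC-PTX (orange), and lower bars of Hoxa4 cut at the axis. The level is highest at Hoxa10, about 76.0 kb from Hoxa2, and the lines cross between Hoxa11, higher in MPC-PTX, and Hoxa13, higher in MPC; Hoxa3 stands after Hoxa6 because its longest gene model starts there.

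Of the 39 HOX genes, 11 passed the filter on low counts: 10 of Hoxa, and Hoxb6. At an adjusted p below 0.05 (edgeR quasi-likelihood test, Benjamini-Hochberg over 11795 genes), 2 HOX genes rose in MPC-PTX, Hoxa11 among them, and 3 fell, Hoxa9, Hoxa13 and Hoxb6. The higher calls were 2 of 11 (18.2%) against 14.1% of all genes tested, and the lower calls 3 of 11 (27.3%) against 15.6%. With 11 genes these shares are near the background and are not a result about the HOX set. The libraries of the lines did not overlap for the same 5 genes. Among all genes tested, 24.2% did not overlap and were higher in MPC-PTX, and 22.7% were lower. By the rule of the study's methods, an unadjusted p below 0.05 and a log2 fold change beyond 1 in size, Hoxb6 was lower and no HOX gene was higher, against 8.11% of all genes in either direction. At an unadjusted p below 0.05 alone there were 5 HOX genes, and the share of all genes at that threshold is not given here. DESeq2 called the same 5 at an adjusted p below 0.05, and 3413 of 11795 genes over all. The median log2 fold change of all genes was 0.04.

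**Figure D3:**
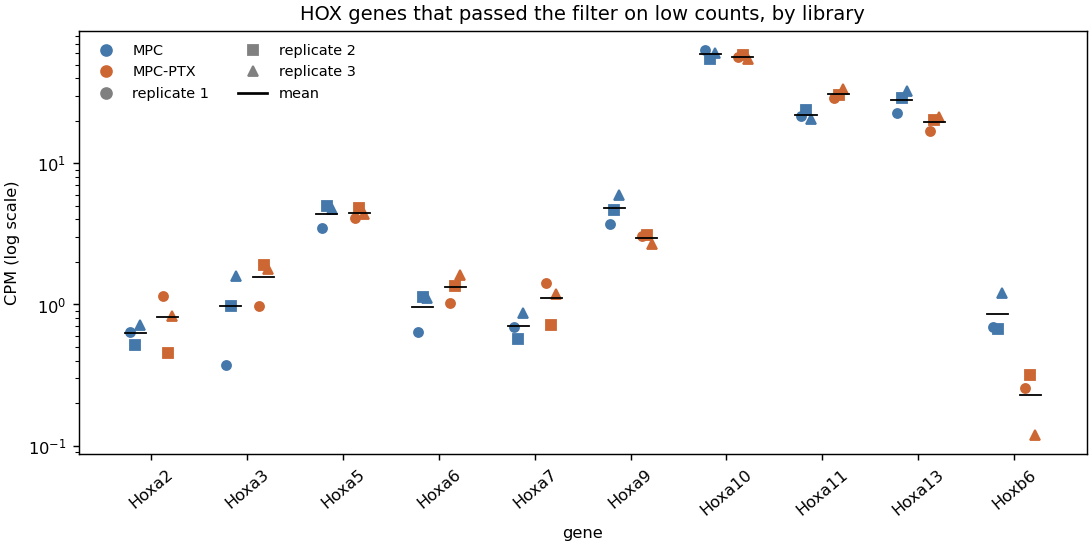
CPM (log scale) of 10 HOX genes that passed the filter, for each library of MPC (blue) and MPC-PTX (orange), with replicates as symbols and the mean of 3 libraries as a bar. The libraries of the lines separate for Hoxa11, higher in MPC-PTX, and for Hoxa9, Hoxa13 and Hoxb6, lower in MPC-PTX.

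Of the anterior members, Hoxa2 and Hoxa3 did not pass the threshold. Hoxa2, a gene of the hindbrain and the second branchial arch, had 12, 10 and 15 counts against 27, 10 and 14, with a log2 fold change of 0.38 (95% interval -0.56 to 1.31, edgeR adjusted p = 0.514). Hoxa3, needed for thymus and parathyroid, varied within MPC, at 7, 19 and 33 counts against 23, 42 and 30 (log2 fold change 0.63, 95% interval -0.50 to 1.76, edgeR adjusted p = 0.362). The low Hoxa3 library was MPC replicate 1 and the high one MPC replicate 3. Without replicate 1 the log2 fold change was 0.25 (edgeR adjusted p = 0.649), and without replicate 3 it was 1.11 (0.0696). The intervals of both genes include 0 and a difference of 1 on the log2 scale.

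Of the central members, paralog groups 4 to 8, none of the Hoxa genes passed the threshold. Hoxa5 had 65, 97 and 99 counts in MPC and 96, 107 and 74 in MPC-PTX, with a log2 fold change of 0.01 (95% interval -0.41 to 0.43, edgeR adjusted p = 0.972). Hoxa6 had 12, 22 and 23 counts against 24, 30 and 27 (log2 fold change 0.44, 95% interval -0.28 to 1.17). Hoxa7 had 13, 11 and 18 counts against 33, 16 and 20 (log2 fold change 0.63, 95% interval -0.17 to 1.43). Their lines overlapped, with edgeR adjusted p of 0.319 for Hoxa6 and 0.207 for Hoxa7, and about 10 to 30 counts per library leave intervals too wide to tell a doubling from no change. Hoxa4 had 0, 1 and 0 counts in MPC and 0, 4 and 1 in MPC-PTX, which was not testable at this depth.

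Hoxb6, the one Hoxb gene that passed the filter, fell. It had 13, 13 and 25 counts in MPC and 6, 7 and 2 in MPC-PTX, so every MPC-PTX library was below every MPC library. The means were 0.854 ± 0.301 CPM and 0.230 ± 0.101 (SD, n = 3), a log2 fold change of -1.82 (SE 0.45, edgeR adjusted p = 0.0209). Leaving out MPC-PTX replicate 1, 2 or 3 gave adjusted p of 0.0730, 0.0531 and 0.0727. Its neighbour Hoxb5 had 2, 4 and 8 counts in MPC and 1, 2 and 2 in MPC-PTX, a ratio of 2.88 (exact 95% interval 0.981 to 10.2, counting error only). Hoxb8 had 2, 1 and 1 counts in MPC and 0 in MPC-PTX, for which the interval of the ratio starts at 0.680. Hoxb3 had 8 counts in each line and Hoxb4 8 and 10. Hoxb9 had 1 and 4 counts, all 4 of them in MPC-PTX replicate 2, and Hoxb13 had 1 and 2. In a fit with no filter on low counts, none of these 6 genes had an edgeR adjusted p below 0.05. The lowest was 0.179 for Hoxb8, and none had an unadjusted p below 0.05 either (Hoxb8 0.0620).

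The posterior members, paralog groups 9 to 13, moved in different directions. Hoxa9, a regulator of blood stem cells and limb patterning, had 70, 90 and 125 counts in MPC and 71, 69 and 45 in MPC-PTX. In CPM all MPC-PTX libraries (2.67 to 3.11) were below all MPC libraries (3.72 to 6.01), with a log2 fold change of -0.70 (SE 0.20, edgeR adjusted p = 0.0387). Hoxa10, known from the uterus and the lumbar skeleton, had 1183, 1065 and 1258 counts against 1317, 1300 and 922. Its CPM overlapped between the lines, 54.9 to 62.9 in MPC and 54.8 to 58.6 in MPC-PTX, and the 95% interval of its log2 fold change, -0.25 to 0.11, was the narrowest of the 11 genes (log2 fold change -0.07, edgeR adjusted p = 0.530). Hoxa11, a gene of kidney, limb and uterus, had 405, 464 and 429 counts against 680, 676 and 565. Its means were 22.02 ± 1.71 CPM and 31.0 ± 2.31 (SD, n = 3), a log2 fold change of 0.49 (SE 0.10, edgeR adjusted p = 0.00898). Hoxa13, which patterns the hindgut, digits and genital tract, had 428, 564 and 678 counts against 394, 447 and 360. Its means were 28.1 ± 4.99 CPM and 19.5 ± 2.36 (SD, n = 3), a log2 fold change of -0.53 (SE 0.15, edgeR adjusted p = 0.0377).

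The ratio of Hoxa11 to Hoxa13 turned over between the lines. In the MPC libraries it was 0.946, 0.823 and 0.633, and in the MPC-PTX libraries 1.73, 1.51 and 1.57. Every MPC library had more Hoxa13 than Hoxa11 in CPM and every MPC-PTX library the reverse. The mean ratio was 2.03-fold higher in MPC-PTX on the log2 scale, by 1.02. Hoxa11 and Hoxa13 each separated the lines, in opposite directions, so their ratio had to separate them too. An exact permutation test of 3 against 3 libraries could then give only its smallest two-sided p, 0.1, so it adds no support. This ratio was chosen after the values were seen.

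The higher calls were kept without any 1 library, with edgeR adjusted p of 0.0492 at most for Hoxa11. The lower calls were not. Without MPC replicate 1 or 3, the libraries at either end, the same 5 HOX genes were called. Without MPC replicate 2, Hoxa9 (adjusted p = 0.0960) and Hoxa13 (0.120) were no longer called. Without MPC-PTX replicate 1, 2 or 3, Hoxa9 had an adjusted p of 0.109, 0.103 and 0.130, and Hoxa13 of 0.137, 0.103 and 0.0736. Over all genes, calls fell from 3509 to between 1904 and 1940 when 1 MPC-PTX library was left out. The fold changes of Hoxa9 stayed between -0.85 and -0.55 and those of Hoxa13 between -0.67 and -0.44 under all alternatives. Without MPC replicate 3, Hoxa3 also passed the rule of the study's methods.

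**Figure D4:**
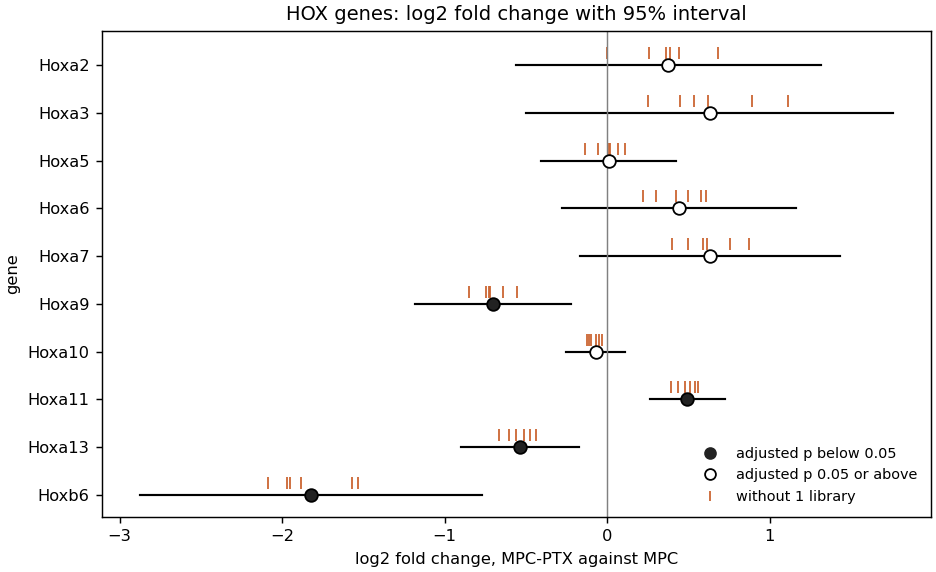
Log2 fold change of 10 HOX genes in MPC-PTX against MPC, with 95% intervals as lines, filled points for an adjusted p below 0.05 and orange ticks for the values when 1 library was left out. Hoxa11 lies above 0 and Hoxa9, Hoxa13 and Hoxb6 below 0 in all of them, while Hoxa10 at -0.07 has the narrowest interval.

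Antisense genes overlap several members, and the use of strand in counting is not given in the sources used here, so reads of a gene and of its antisense partner cannot be told apart. In GENCODE M21 (GRCm38), 35.0% of the exon bases of Hoxa11 (chr6:52242106-52245810, minus strand) are shared with Hoxa11os on the opposite strand. The share is 20.4% for Hoxa7 with Hoxaas3, 52.9% for Hoxb3 with Hoxb3os and 3.59% for Hoxb5 with Hoxb5os. For Hoxa3 it is 8.4% with Hoxaas2, 7.3% with Gm29430, 4.9% with Hoxaas3 and 4.9% with 5730596B20Rik, and for Hoxa4 16.0% with Gm29430. On the same strand, 15.0% of the exon bases of Hoxa2 and 8.0% of those of Hoxa3 are shared with Gm28308. No exon bases of Hoxa5, Hoxa6, Hoxa10, Hoxa13 or Hoxb6 are shared with another annotated gene. The called value of Hoxa11 may therefore include reads from the other strand, and the part of these was not tested.

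Among the cofactors that bind DNA with HOX proteins, 8 of 9 passed the filter, and 1 was higher and 1 lower in MPC-PTX at an adjusted p below 0.05, which is near the 14.1% and 15.6% of all genes. Meis3 fell from 132, 119 and 91 counts in MPC to 5, 11 and 7 in MPC-PTX. Every MPC-PTX library was far below MPC, at 0.375 ± 0.146 CPM against 5.84 ± 1.34 (SD, n = 3), a log2 fold change of -3.96 (SE 0.33, edgeR adjusted p = 0.000205). Meis2 had 169, 211 and 265 counts in MPC and 447, 433 and 298 in MPC-PTX. It rose from 10.9 ± 1.88 to 18.8 ± 0.950 CPM, a log2 fold change of 0.79 (SE 0.14, edgeR adjusted p = 0.00536). Meis1 had a log2 fold change of -0.46 (edgeR adjusted p = 0.0951). So the 3 MEIS genes had unlike values, and both calls held without any 1 library. Pbx3 did not overlap, at 50.6 to 61.6 CPM against 65.0 to 68.9, but missed the threshold (log2 fold change 0.28, edgeR adjusted p = 0.0561). Pbx2, Pbx4 and Pknox1 had log2 fold changes of -0.07, 0.46 and 0.01 and edgeR adjusted p of 0.582, 0.284 and 0.940. Pknox2 had 1 count in MPC and 2 in MPC-PTX.

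**Figure D5:**
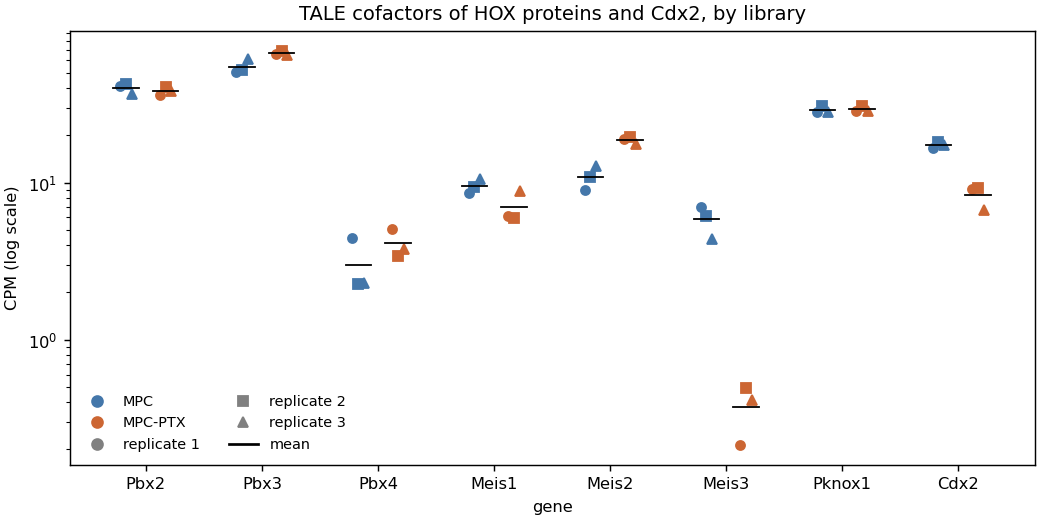
CPM (log scale) of 7 cofactors of HOX proteins that passed the filter and of Cdx2, for each library of MPC (blue) and MPC-PTX (orange), with replicates as symbols and the mean of 3 libraries as a bar. Meis3 (5.84 against 0.375 CPM) and Cdx2 are lower and Meis2 is higher in MPC-PTX, with no overlap between the lines.

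Of 6 caudal and ParaHox genes, relatives of the HOX genes that act in the gut, 2 passed the filter. Cdx2, the caudal gene of intestinal identity, fell from 315, 354 and 360 counts in MPC to 213, 204 and 113 in MPC-PTX. The means were 17.4 ± 0.766 CPM and 8.34 ± 1.41 (SD, n = 3), a log2 fold change of -1.06 (SE 0.14, edgeR adjusted p = 0.00155). Pdx1, a gene of pancreas, duodenum and antrum, did not overlap at 8.85 ± 0.818 and 7.26 ± 0.471 CPM but missed the threshold (edgeR adjusted p = 0.122). Cdx1 had 2 counts in each line, and Cdx4, Gsx1 and Gsx2 had 0. Of 6 intestinal markers, Cdx2 among them, the summed level was 58.6 to 75.5 CPM in MPC and 10.6 to 15.0 in MPC-PTX. Most of this was Vil1, a brush border protein, at 44.6 ± 9.01 and 0.381 ± 0.0799 CPM (SD, n = 3). Muc2, the intestinal mucin, had 107, 61 and 44 counts in MPC and 12, 105 and 129 in MPC-PTX, which overlapped (log2 fold change 0.21).

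Of 17 retinoic acid genes, 12 passed the filter, 3 were higher and 5 lower in MPC-PTX (14.1% and 15.6% of all genes), and the median log2 fold change was -0.16. Aldh1a2 and Aldh1a1, enzymes that make retinoic acid, fell by 1.71 and 1.06 on the log2 scale (edgeR adjusted p = 4.47e-05 and 0.000281). Aldh1a2 had 467, 466 and 452 counts in MPC and 174, 162 and 115 in MPC-PTX. Cyp26b1, which breaks retinoic acid down, had 30, 56 and 56 counts against 21, 20 and 12, a log2 fold change of -1.497 (SE 0.29, edgeR adjusted p = 0.00840). Genes of synthesis and of breakdown thus both had lower counts. The other 5 calls were under 1 on the log2 scale and are named here because they are few. Crabp2, a carrier of retinoic acid, rose by 0.90, the receptor Rarb by 0.57 and the retinol importer Stra6 by 0.46, while the retinol enzymes Rdh10 and Dhrs3 fell by 0.50 and 0.42. Rarb (edgeR adjusted p = 0.0436) was not called without MPC replicate 1 or 2 or any 1 MPC-PTX library, with adjusted p of 0.0794 to 0.151, and Dhrs3 not without MPC-PTX replicate 2 (0.0537).

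Few chromatin regulators of the clusters were called, beside 14.1% of all genes higher and 15.6% lower. All 12 PRC2 genes passed the filter, with a median log2 fold change of 0.12, 1 higher and 1 lower. Phf19, a PRC2 accessory protein that binds CpG-rich DNA and H3K36 methylation, had 336, 308 and 317 counts in MPC and 1079, 910 and 724 in MPC-PTX. Each MPC-PTX library had more than each MPC library, with means of 16.3 ± 1.37 and 43.4 ± 2.55 CPM (SD, n = 3) and a log2 fold change of 1.41 (SE 0.10, edgeR adjusted p = 9.77e-05). The catalytic subunit Ezh2 stood at 110 ± 13.6 and 109 ± 3.98 CPM (edgeR adjusted p = 0.943), and Rbbp7, a histone-binding subunit, fell by 0.27. Of 20 PRC1 genes 1 was lower, Scmh1, by 0.42. Of 15 genes of the MLL and trithorax complexes and the H3K27 demethylases, which oppose Polycomb, 2 were higher, the demethylase Kdm6b by 0.58 and the MLL subunit Ash2l by 0.34. None of the 5 genes of CTCF and cohesin passed an adjusted p below 0.05 by edgeR or by DESeq2, and none had an unadjusted p below 0.05. Ash2l was not called without MPC replicate 2 (edgeR adjusted p = 0.0657) or MPC-PTX replicate 1, 2 or 3 (0.0682, 0.0617 and 0.0601), nor Rbbp7 without MPC-PTX replicate 2 (0.0629) or 3 (0.0539). Over all lists of partners, regulators and neighbours, 9 of 96 genes tested were higher and 15 lower, against 14.1% and 15.6% of all genes. Without MPC replicate 3 these counts were 32 and 26, while calls over all genes rose from 3509 of 11795 to 6247 of 11896. With 1 of the other libraries left out they were 6 to 12 and 10 to 15.

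Of the listed genes beside the clusters, most passed the filter on low counts, also beside the silent Hoxc and Hoxd clusters. Among all genes tested, 14.1% were higher and 15.6% lower. Beside Hoxa, on chromosome 6, 4 of 6 genes passed the filter and 2 were lower, Hibadh, 285 kb away, by 0.29 on the log2 scale and Skap2, 143 kb away, by 0.21. With the GC content and length correction their log2 fold changes were -0.634 and -0.577. Skap2 was not called with that correction (edgeR adjusted p = 0.0522), library size alone (0.0934), no low-count filter (0.0663) or the replicate block (0.0862). With the correction and the block together Skap2 was called (0.0182). Evx1, the homeobox gene next to Hoxa13, had 9, 14 and 5 counts in MPC and 0, 1 and 3 in MPC-PTX and was not tested. Beside Hoxb, 7 genes passed. Skap1, 96.3 kb away, fell from 1.70 to 0.522 CPM (log2 fold change -1.72, SE 0.30, edgeR adjusted p = 0.00516), Copz2, 482 kb away, rose from 2.27 to 5.68 CPM (log2 fold change 1.32, SE 0.18, edgeR adjusted p = 0.00218), and Nfe2l1 rose by 0.27. Beside the silent Hoxc cluster, 5 genes passed and 2 were lower, Calcoco1 by 0.77 and Hnrnpa1 by 0.26, and Hnrnpa1 stood at 937 and 780 CPM. Beside the silent Hoxd cluster, 6 passed, and Chn1, 893 kb away, fell by 1.81 (edgeR adjusted p = 0.000768). Evx2, 8.75 kb from Hoxd, had 0 counts in every library. Without MPC replicate 2, Skap2, Hibadh and Hnrnpa1 were not called, without any 1 MPC-PTX library they were not called either (edgeR adjusted p of 0.0567 to 0.167 over these fits), and Nfe2l1 was not called without MPC-PTX replicate 1 (0.0600) or 2 (0.0624).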

How the data were processed

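The 6 libraries were poly-A selected and sequenced in pairs on an Illumina instrument. Per the labels, fastp 0.22.0 was used to clean the reads, and per the study HISAT2 for mapping. The authors deposited raw counts per gene, neither normalized nor pooled. The genome release, annotation, counting tool, use of strand and treatment of multi-mapping reads are not given in the sources used here.

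From the deposited counts, edgeR 4.0.16 (R 4.3.3) was run with TMM scaling, filterByExpr at a minimum count of 10 and the robust quasi-likelihood test of MPC-PTX against MPC, with Benjamini-Hochberg adjustment over 11795 genes. The authors' threshold, an unadjusted p below 0.05 with a log2 fold change beyond 1 in size, was applied beside an adjusted p below 0.05. CPM uses TMM-scaled library sizes. Intervals are at 95%, and those of count ratios and floors (3 counts) cover counting error only, since reads carry no molecular identifiers. DESeq2 1.42.0, other scalings and filters, a GC content and length correction, a replicate block and each library left out were alternatives. The fit was tested on simulated data. Gene positions and lengths came from GENCODE M21 (GRCm38), and upstream and microRNA sequences from RefSeq (GRCm38.p6).

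Members and gene lists were chosen with earlier results of these data known. Named were HOX genes with at least 10 counts in 1 library, others with any count, cofactors that passed the filter, and other listed genes with an adjusted p below 0.05 and a log2 fold change beyond 1. Listed genes with smaller changes were named after their values were seen. Prac1, Prac2 and Lnp of the lists, and antisense RNAs of the clusters, were not analysed here. Some listed or counted genes are not reported here by name.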

Additional observations from a re-analysis of the deposited data

How the results depend on the processing

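The 5 called HOX genes kept their direction under every alternative run. Hoxa11 was called in 14 of 14 (DESeq2 included), Hoxa9 and Hoxa13 in 9 of 14 and Hoxb6 in 10 of 13. The number of HOX genes lower at an adjusted p below 0.05, 3, ranged from 0 to 3 when 1 library was left out, with 1 without MPC replicate 2 and 0 without MPC-PTX replicate 1, 2 or 3. The number higher by the rule of the study's methods, 0, ranged from 0 to 1. With at least 10 counts required in every library, 9 HOX genes were tested, Hoxb6 was not among them, and 0 were lower by that rule (Hoxa9 and Hoxa13 stayed below an adjusted p of 0.05). Hoxa13 had an adjusted p of 0.0509 with library size alone, and the cause was not tested.

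The correlations did not settle whether the replicate numbers pair the libraries. Deviations of same-numbered libraries correlated at 0.151, -0.0227 and 0.173 over 11795 genes. MPC replicates 1 and 3 correlated best with the MPC-PTX library of the same number, but MPC replicate 2 with MPC-PTX replicate 1 (0.153). With the replicate block, the adjusted p was 0.0548 for Hoxa9, and 2 HOX genes were higher and 2 lower. With the replicate block and the GC content and length correction, 15 list genes of 96 were higher, against 9 in the report, and calls over all genes rose from 3509 to 4887 of 11795; the cause was not tested.

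Without MPC replicate 3, 32 list genes were higher and 26 lower, against 9 and 15, while 6247 of 11896 genes were called over all, and leaving out 1 library gave 6 to 32 higher and 10 to 26 lower. Depth limits the 28 HOX genes that did not pass the filter. An exon-union length, added after the data were seen, gave a Hoxa share of 98.6% in MPC and 99.4% in MPC-PTX.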
